A study of Mus musculus with 10 samples.

Results

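Transcripts of Polycomb repressive complex 2 (PRC2) were followed through 10 mouse libraries by 8 genes, chosen by their symbols among the 50559 genes of the deposited count files. The 8 genes were Ezh2, Ezh1, Eed, Suz12, Rbbp4, Rbbp7, Jarid2 and Kdm6b. All of them passed the filter on low counts and were among the 29952 genes tested. The groups were 4 MYC/SMARCA4 tumors, 3 SHH medulloblastomas (SHH MB) and 3 P7 cerebella. MYC/SMARCA4 tumors had grown in the cerebella of CD1nu/nu mice from transplanted granule cell precursors (GCPs) of tamoxifen-treated Math1-creERT2::Smarca4fl/fl pups. These GCPs had been transduced with lentiviral murine Myc and were not sorted before transplantation, and the recipients were aged 112, 96, 89 and 79 days for tumors 1 to 4. P7 cerebella came from Math1-creERT2::Smarca4fl/fl mice aged 7 days that had received 0.4 mg tamoxifen on day 3, so that these controls carry the induced Smarca4 deletion in cells of the Math1 lineage as well. SHH MB came from Math1-cre::Smofl/wt mice, for which the labels give an age of 7 days and no Smarca4 allele or treatment. All RNA was extracted from formalin-fixed, paraffin-embedded (FFPE) tissue. With bulk RNA of such tissue, fewer cells of a type and less RNA per cell cannot be told apart.

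PRC2 adds methyl groups to a lysine of the histone H3 tail, a mark (H3K27me3) of silenced developmental genes. EZH2 or its paralog EZH1 is the catalytic subunit. EED binds the mark and stimulates the enzyme, SUZ12 holds the complex together, and RBBP4 or RBBP7 binds histones. EZH2 predominates in dividing progenitors, whereas EZH1 persists in cells that have left the cycle, neurons included. JARID2 joins 1 form of the complex and helps to bring it to chromatin. KDM6B removes the mark and so opposes PRC2. SMARCA4, an ATPase of the BAF chromatin remodeling complex, is known to counteract Polycomb silencing.

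RefSeq promoters matched 7 of the 8 genes by symbol, and Kdm6b did not match. The table is of build GRCm38.p6, and each window was found exactly once in GRCm39, the build of the count files. Windows for both catalytic paralogs, for Eed and for Suz12 are shown because ratios of Ezh2 to the others are described below, without a test between groups. Each line gives 265 bases of the window, the first 250 of which precede the RefSeq start, 5′ to 3′ on the strand of the gene. Ezh2 is at chr6:47571950-47572214 (minus strand), Ezh1 at chr11:101117275-101117539 (minus strand), Eed at chr7:89630170-89630434 (minus strand) and Suz12 at chr11:79883682-79883946 (plus strand). Capitals mark a match to 1 of the E2F motifs TTTCGCGC, TTTGGCGC, TTTCCCGC and TTTGCCGC, searched on both strands.
Ezh2: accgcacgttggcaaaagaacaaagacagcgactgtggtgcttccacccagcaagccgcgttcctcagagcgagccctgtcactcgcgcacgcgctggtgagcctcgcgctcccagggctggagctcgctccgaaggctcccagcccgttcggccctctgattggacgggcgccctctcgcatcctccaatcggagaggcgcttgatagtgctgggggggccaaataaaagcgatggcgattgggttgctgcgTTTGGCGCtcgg
Ezh1: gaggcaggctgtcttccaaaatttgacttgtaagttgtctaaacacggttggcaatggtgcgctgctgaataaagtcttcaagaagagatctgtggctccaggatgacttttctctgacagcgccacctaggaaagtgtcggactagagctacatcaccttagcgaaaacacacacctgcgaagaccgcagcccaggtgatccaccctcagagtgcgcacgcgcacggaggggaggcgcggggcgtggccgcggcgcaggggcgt
Eed: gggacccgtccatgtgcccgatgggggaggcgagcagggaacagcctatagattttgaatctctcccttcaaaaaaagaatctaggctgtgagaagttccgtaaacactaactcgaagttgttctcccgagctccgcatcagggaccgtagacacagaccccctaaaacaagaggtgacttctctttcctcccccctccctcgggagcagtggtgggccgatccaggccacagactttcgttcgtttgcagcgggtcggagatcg
Suz12: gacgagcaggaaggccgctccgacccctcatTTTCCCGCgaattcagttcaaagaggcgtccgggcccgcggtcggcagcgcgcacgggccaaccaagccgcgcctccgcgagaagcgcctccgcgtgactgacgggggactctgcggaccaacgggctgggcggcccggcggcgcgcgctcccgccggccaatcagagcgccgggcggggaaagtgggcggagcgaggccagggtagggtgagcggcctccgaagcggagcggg
An E2F motif was present in Ezh2 (bases 254 to 261 of the window) and in Suz12 (bases 32 to 39), and these letters were absent from the windows of Ezh1 and Eed. Of 32851 promoter windows of 300 bases, 2.26% held such a motif. The E-box CACGTG, the motif to which MYC is known to bind, was held by 7.15% of windows and among the members by that of Rbbp4 (bases 27 to 32). Whether these letters are bound in the tissues was not measured.

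Between 5663491 and 9352109 reads were counted per library, and 3 counts corresponded to between 0.307 and 0.744 CPM (counts relative to the effective library size) after TMM normalization. Tumor 1 stood apart. Mitochondrial genes took 6.36% of its counts and 1.25 to 2.94% of those of all other libraries. The mean log2 CPM of 20 proliferation genes was 3.23 in tumor 1, 6.38 to 6.66 in the other tumors, 6.36 to 6.44 in SHH MB and 5.14 to 5.57 in P7 cerebella. In contrast, 8 markers of mature granule neurons summed to 7978, 2376, 303.9 and 1409 CPM in tumors 1 to 4. These sums were 360.1 to 454.1 CPM in SHH MB and 905.0 to 1066 CPM in P7 cerebella. Likewise, 6 Purkinje cell markers summed to 11070, 2662, 337.8 and 1856 CPM in tumors 1 to 4. For 6 markers of myelinating oligodendrocytes the sums were 3909, 779.4, 103.5 and 415.0 CPM. Across SHH MB and P7 cerebella the Purkinje sums were 351.2 to 614.4 and 1347 to 1447 CPM. The oligodendrocyte sums were 110.5 to 373.2 and 919.4 to 1098 CPM. Both neuronal sums of tumors 1, 2 and 4 thus lay above those of all P7 cerebella, whereas those of tumor 3 lay below. Astrocytes and Bergmann glia, with 6 markers, had a mean log2 CPM of 3.28 to 6.35 in MYC/SMARCA4 tumors, 6.09 to 6.51 in SHH MB and 7.35 to 7.39 in P7 cerebella, and 3 of them (Aqp4, Aldh1l1 and Gdf10) were called lower in tumors than in P7 cerebella and 1 (Aldh1l1) lower than in SHH MB. The 5 choroid plexus markers summed to 10.8 to 25.6 CPM in MYC/SMARCA4 tumors, 255.2 to 1258 in SHH MB and 557.2 to 1150 in P7 cerebella, and 2 (Ttr and Aqp1) were called lower in tumors than in both other groups. Of the 8 GCP markers, all were detected in every library, and their mean log2 CPM was 4.49 to 5.89 in MYC/SMARCA4 tumors, 7.80 to 8.01 in SHH MB and 6.83 to 6.98 in P7 cerebella. Among them, 2 (Barhl1 and Mycn) were called lower in tumors than in both other groups. Their sum was 681.3 to 1547 CPM in tumors, 2151 to 2500 in SHH MB and 1580 to 1707 in P7 cerebella. Tumor 1 had the lowest mean log2 CPM of the tumors (4.49) but the highest sum (1547 CPM). No marker of these 6 cell type lists was at 0 in any library. The part of these cells in the values of the members, including the calls of Eed, Suz12 and Rbbp7, was not tested. Values without tumor 1 are given as well, but these leave in the neuronal marker RNA of tumors 2 and 4. Myc reached 152 to 1587 CPM in the MYC/SMARCA4 tumors, 33.7 to 45.7 in SHH MB and 13.0 to 14.3 in P7 cerebella. Smarca4, counted over the whole gene, was at 135.9 to 243.9, 490.5 to 589.7 and 221 to 282 CPM in the same order. The authors found SMARCA4 protein lost from all tumor cells by staining and detected recombined Smarca4 by PCR. RNA counted over the whole gene does not measure that loss.

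In the fit of all 10 libraries, 3 of the 8 genes (Eed, Suz12 and Rbbp7) were called higher in MYC/SMARCA4 tumors than in P7 cerebella. Their differences were 1.13 to 1.26 on the log2 scale, and none of the 8 was called lower. When only tumors and P7 cerebella were fitted, none of the 8 was called (adjusted p = 0.0849 for Eed, 0.157 for Suz12 and 0.141 for Rbbp7). Against SHH MB, no member passed the threshold in either direction. Between SHH MB and P7 cerebella none passed in the fit of all 10 libraries, whereas 6 were higher in SHH MB when only these groups were fitted. A gene was called at an adjusted p of at most 0.05 in the quasi-likelihood test of edgeR. Among all genes tested, 3.99% were called higher in tumors than in P7 cerebella and 2.27% lower. Against SHH MB, 2.43% were called higher and 2.26% lower. The comparisons share groups and are not independent.

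**Figure D1:**
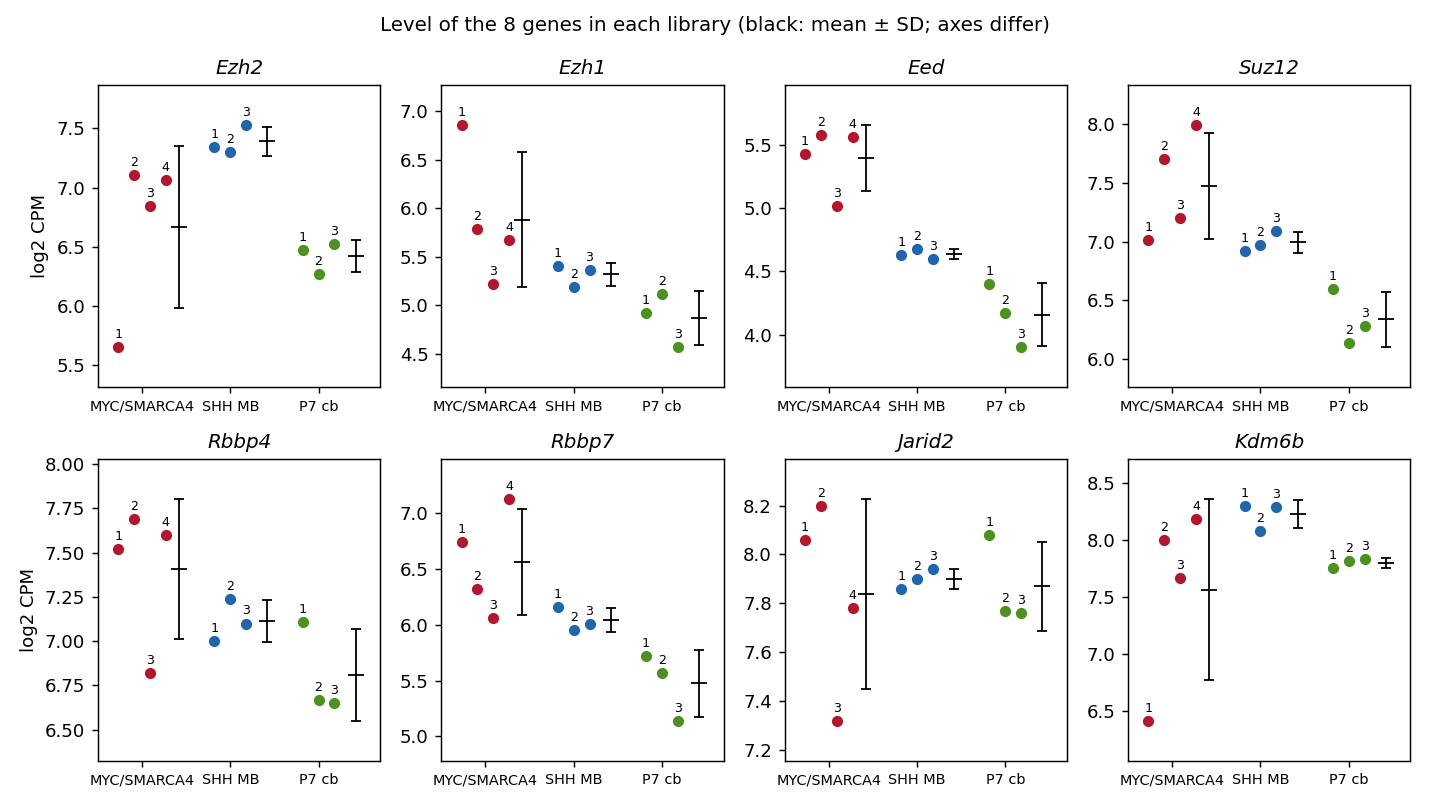
Log2 CPM (y axis, a scale of its own for each gene) of the 8 genes in every library, in MYC/SMARCA4 tumors (red), SHH MB (blue) and P7 cerebella (green, P7 cb). Numbers are the replicates and black bars the mean ± SD of each group: tumor 1 is the lowest library for Ezh2 and Kdm6b and the highest for Ezh1, while all tumors lie above all P7 cerebella for Ezh1, Eed, Suz12 and Rbbp7.

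Ezh2 (chr6:47507073-47572331, minus strand, GRCm39) encodes the catalytic subunit of dividing cells. Its normalized level was 50.1, 138, 114 and 133 CPM in tumors 1 to 4, 161, 157 and 185 CPM in SHH MB 1 to 3, and 88.6, 77.1 and 91.7 CPM in P7 cerebella 1 to 3. All 4 tumors lay below all SHH MB, and tumor 1 lay below every other library while tumors 2 to 4 lay between SHH MB and P7 cerebella. For Ezh2 the log2 fold change was -0.63 ± 0.32 (SE) against SHH MB (adjusted p = 0.298) and 0.34 ± 0.32 against P7 cerebella (adjusted p = 0.498). Without tumor 1 these values were -0.40 ± 0.20 (adjusted p = 0.27) and 0.59 ± 0.20 (adjusted p = 0.0666). All SHH MB lay above all P7 cerebella, with a log2 fold change of 0.97 ± 0.35 and an adjusted p of 0.426. This difference was called without tumor 1 (0.99 ± 0.20, adjusted p = 0.021) and in the fit of SHH MB and P7 cerebella alone (0.99 ± 0.12, adjusted p = 3.48e-07).

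Ezh1 (chr11:101081934-101117315, minus strand) encodes the paralog that persists in cells out of cycle. Its level was 116, 54.9, 37.1 and 50.6 CPM in tumors 1 to 4, 42.3, 36.3 and 40.9 CPM in SHH MB and 30.04, 34.4 and 23.5 CPM in P7 cerebella. Tumor 1 lay above every other library, tumor 3 lay within the range of SHH MB, and all tumors lay above all P7 cerebella. The log2 fold change was 1.13 ± 0.36 against P7 cerebella (adjusted p = 0.0779) and 0.69 ± 0.35 against SHH MB (adjusted p = 0.3), and without tumor 1 it was 0.71 ± 0.23 (adjusted p = 0.0507) and 0.24 ± 0.22 (adjusted p = 0.603). It was called against P7 cerebella by DESeq2 and without tumor 3 (1.12 ± 0.27, adjusted p = 0.0128). Of the 75-base stretches of its canonical transcript, 17.8% are shared with Cntnap1, an axonal gene on the opposite strand. The level of Cntnap1 was 173 ± 56.4 CPM (SD, n = 4) in tumors, 109 ± 12.8 (n = 3) in SHH MB and 108 ± 13.6 (n = 3) in P7 cerebella, and its part in Ezh1 was not tested.

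Per kilobase of exon, Ezh2 exceeded Ezh1 in 9 of 10 libraries. The log2 ratio of Ezh2 over Ezh1 was -0.86, 1.66, 1.96 and 1.73 in tumors 1 to 4, 2.27, 2.45 and 2.51 in SHH MB and 1.89, 1.5 and 2.29 in P7 cerebella. Tumor 1 was the sole library below 0, and it was also the library with the least proliferation and the most neuronal marker RNA. Its ratio set the mean of the tumors at 1.12 ± 1.33 (SD, n = 4), which was 1.78 ± 0.15 (n = 3) without it. All tumors lay below the 3 SHH MB, where the mean was 2.41 ± 0.13, and tumors 2 to 4 lay within the range of P7 cerebella, where it was 1.89 ± 0.40. Ezh2 relative to the proliferation genes differed as well. The difference between log2 CPM of Ezh2 and the mean log2 CPM of the 20 genes was 2.42 in tumor 1 and 0.73, 0.44 and 0.39 in tumors 2 to 4. It was 0.98, 0.92 and 1.09 in SHH MB and 0.90, 1.13 and 1.33 in P7 cerebella, so that tumors 2 to 4 lay below and tumor 1 above all libraries of the other groups. The groups were not compared by a test on these ratios.

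**Figure D2:**
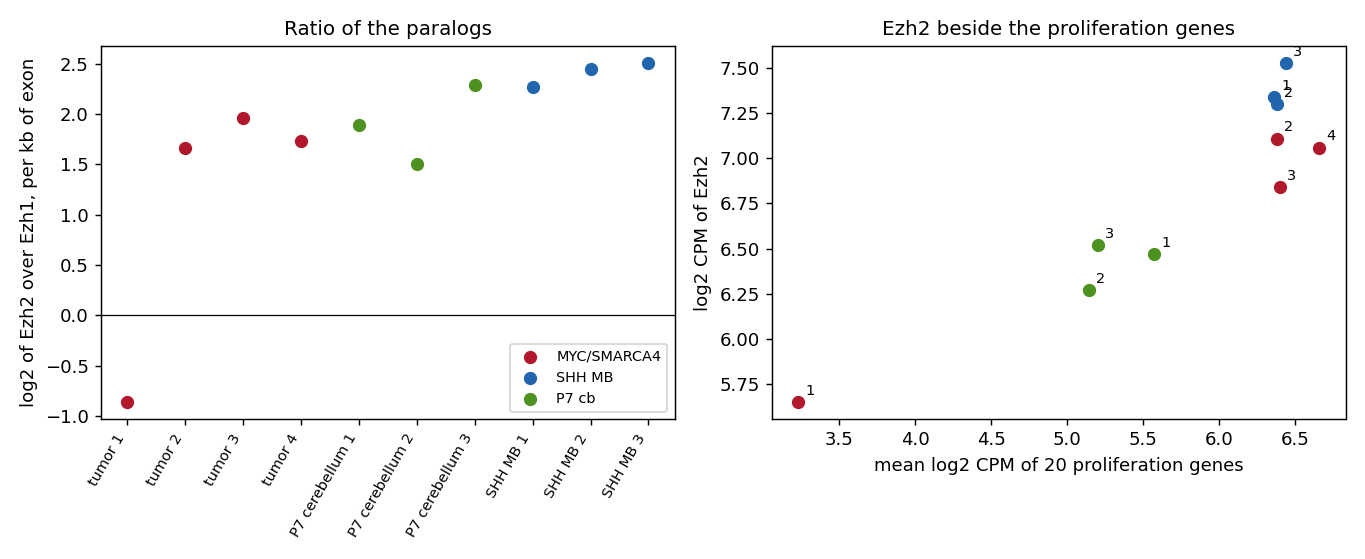
Left: log2 ratio of Ezh2 over Ezh1 per kilobase of exon in each library (y axis), with a line at equal levels; only tumor 1 lies below it, at -0.86. Right: log2 CPM of Ezh2 (y axis) against the mean log2 CPM of 20 proliferation genes (x axis), 1 point per library with its replicate number; tumors 2 to 4 reach the proliferation level of SHH MB at a lower level of Ezh2.

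Eed (chr7:89603862-89630217, minus strand), encodes the subunit that reads the mark. Its level was 42.9, 47.5, 32.2 and 47.2 CPM in tumors 1 to 4, 24.4, 25.3 and 24.0 CPM in SHH MB and 20.8, 17.7 and 14.7 CPM in P7 cerebella. Every tumor lay above every library of the other groups, tumor 1 included. The log2 fold change against P7 cerebella was 1.26 ± 0.25 (adjusted p = 0.016), a 2.39-fold higher level. Eed was called in 14 of 19 alternatives, whose adjusted p ranged from 9.28e-05 to 0.118. Against SHH MB the log2 fold change was 0.79 ± 0.25 (adjusted p = 0.0912), and this difference was called by DESeq2, without tumor 1 (0.77 ± 0.22, adjusted p = 0.048) and without tumor 3 (0.76 ± 0.22, adjusted p = 0.0325). Of the 75-base stretches of Eed, 13.9% are shared with E230029C05Rik on the opposite strand, whose level did not exceed 2.73 CPM in any library.

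Suz12 (chr11:79883891-79925421, plus strand), the scaffold of the complex, followed a similar order. Its level was 129, 207, 147 and 254 CPM in tumors 1 to 4, 121, 125 and 136 CPM in SHH MB and 97.0, 70.3 and 77.5 CPM in P7 cerebella. All tumors lay above all P7 cerebella, and 3 of the 4 lay above all SHH MB. The log2 fold change was 1.18 ± 0.29 against P7 cerebella (adjusted p = 0.0353, 0.00164 to 0.206 over 19 alternatives, 7 of which called it) and 0.53 ± 0.29 against SHH MB (adjusted p = 0.326). Without tumor 1 it was 1.32 ± 0.25 (adjusted p = 0.00324) and 0.66 ± 0.24 (adjusted p = 0.119). Suz12 shares no 75-base stretch with the transcripts of another gene. Within the libraries, Ezh2 and Suz12 stood in different proportion. Per kilobase of exon, the log2 ratio of Ezh2 over Suz12 was -1.31, -0.54, -0.32 and -0.89 in tumors 1 to 4, 0.38 to 0.49 in SHH MB and -0.08 to 0.29 in P7 cerebella, so that each tumor lay below all other libraries. The same was seen for Ezh2 over Eed, with -0.70, 0.61, 0.90 and 0.57 in tumors 1 to 4, 1.70 to 2.01 in SHH MB and 1.15 to 1.70 in P7 cerebella. These ratios were chosen after the levels had been seen, and the groups were not compared by a test on them.

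RBBP4 and RBBP7 are histone-binding proteins that PRC2 shares with the NuRD, SIN3 and CAF-1 complexes. Rbbp7 (chrX:161543356-161562099, plus strand) was at 106, 79.7, 66.6 and 139.9 CPM in tumors 1 to 4, 71.4, 61.5 and 64.2 CPM in SHH MB and 52.3, 47.3 and 35.1 CPM in P7 cerebella. All tumors lay above all P7 cerebella, and tumor 3 lay within the range of SHH MB. Its log2 fold change against P7 cerebella was 1.13 ± 0.30 (adjusted p = 0.0421, 0.00393 to 0.218 over 19 alternatives, 7 of which called it), and 1.10 ± 0.28 without tumor 1 (adjusted p = 0.0185). Against SHH MB it was 0.58 ± 0.29 (adjusted p = 0.291). Of its 75-base stretches, 9.81% are shared with Txlng, on the opposite strand, and with Gm6382. Txlng was at 18.8 to 52.8 CPM in tumors, 20.2 to 28.8 in SHH MB and 16.4 to 16.6 in P7 cerebella, and Gm6382 did not exceed 4.51 CPM.

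Rbbp4 (chr4:129184867-129229170, minus strand) was at 183, 206, 113 and 194 CPM in tumors 1 to 4, 128, 151 and 137 CPM in SHH MB and 138, 101 and 100.3 CPM in P7 cerebella. Here the groups overlapped because tumor 3 lay below all SHH MB and below 1 P7 cerebellum. Its log2 fold change was 0.62 ± 0.28 against P7 cerebella (adjusted p = 0.182) and 0.33 ± 0.27 against SHH MB (adjusted p = 0.545). Without tumor 3 Rbbp4 was called against P7 cerebella (0.63 ± 0.22, adjusted p = 0.0427). As 51.5% of the 75-base stretches of Rbbp4 are shared with Sync on the opposite strand, its counts depend on how reads in this overlap were assigned, which is not given in the sources used here. Sync itself did not exceed 10.04 CPM in any library.

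Jarid2 (chr13:44882950-45075119, plus strand), which belongs to an accessory form of PRC2, did not separate the groups. Its level was 267, 293, 159.5 and 219 CPM in tumors 1 to 4, 231, 239 and 245 CPM in SHH MB and 269.5, 218 and 217 CPM in P7 cerebella. Both the highest and the lowest library were tumors. The log2 fold change was -0.0003 ± 0.27 against P7 cerebella (adjusted p = 1), -0.02 ± 0.27 against SHH MB (adjusted p = 0.973) and 0.02 ± 0.29 between SHH MB and P7 cerebella (adjusted p = 0.992), and over the alternatives it ranged from -0.29 to 0.14. The sign changed with the processing in both comparisons with P7 cerebella, whereas against SHH MB the value stayed below 0 in every alternative run. Of the 75-base stretches of Jarid2, 18.6% are shared with Dtnbp1 on the opposite strand, which was at 28.0 to 61.97 CPM.

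Kdm6b (chr11:69289334-69304501, minus strand), the opposing demethylase, was at 84.8, 255.6, 202 and 289.8 CPM in tumors 1 to 4, 315, 269.5 and 313.5 CPM in SHH MB and 215, 224 and 228 CPM in P7 cerebella. Tumor 1 was again the lowest of all libraries, and the other tumors spanned the range from below all P7 cerebella to within SHH MB. The log2 fold change was -0.52 ± 0.35 against SHH MB (adjusted p = 0.445) and -0.09 ± 0.36 against P7 cerebella (adjusted p = 0.876). Without tumor 1 these values were -0.28 ± 0.22 (adjusted p = 0.528) and 0.18 ± 0.22 (adjusted p = 0.608), and the latter thus changed sign. All SHH MB lay above all P7 cerebella (0.43 ± 0.38, adjusted p = 0.826).

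Counted together, 4 of the 8 genes (Ezh1, Eed, Suz12 and Rbbp7) were higher in every tumor than in every P7 cerebellum, as were 10.3% of all genes tested. Against SHH MB, every tumor was higher for Eed alone and lower for Ezh2 alone, as were 7.83% and 8.3% of all genes. The fitted difference from P7 cerebella was above 0 for 6 of 8 members, as for 48.1% of all genes, and against SHH MB for 5 of 8, as for 50.4% of all genes. At an unadjusted p under 0.05, 5 members were higher in tumors than in P7 cerebella, as were 15.3% of all genes, and none was lower, beside 9.97% of all genes. In the comparison with SHH MB this was 1 member higher, beside 12.7% of all genes, and none lower, beside 7.09%. The member was Eed, which DESeq2 called and limma on the deposited values did not. At a stricter rule, with cutoffs of 2.5 for the log2 fold change and 0.01 for the adjusted p, no member was called. This rule was met by 0.29% and 0.601% of all genes against P7 cerebella and SHH MB. The calls against P7 cerebella depended on single libraries. Without any 1 P7 cerebellum none of the 8 genes was called, without tumor 2, tumor 4 or any 1 SHH MB 1 gene (Eed) was called, and without tumor 3 there were 5 (Ezh1, Eed, Suz12, Rbbp4 and Rbbp7). The share of all genes called higher moved as well, from 3.99% to between 0.1% and 0.227% without 1 P7 cerebellum. It was 1.77% without tumor 2, 1.8% without tumor 4, 1.34% to 1.46% without 1 SHH MB and 11.8% without tumor 3. A fit of tumors and P7 cerebella alone called none, with 0.206% of all genes called higher. The calls of Eed, Suz12 and Rbbp7 were kept without tumor 1, where 11.1% of all genes were called higher. That fit still held tumors 2 and 4, whose granule neuron markers (2376 and 1409 CPM) also exceeded those of all P7 cerebella. Tumor 3, the lowest tumor for these markers, had the lowest Eed and Rbbp7 of the tumors, whereas Suz12 was lowest in tumor 1. The part of neuronal RNA in the calls was not tested.

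**Figure D3:**
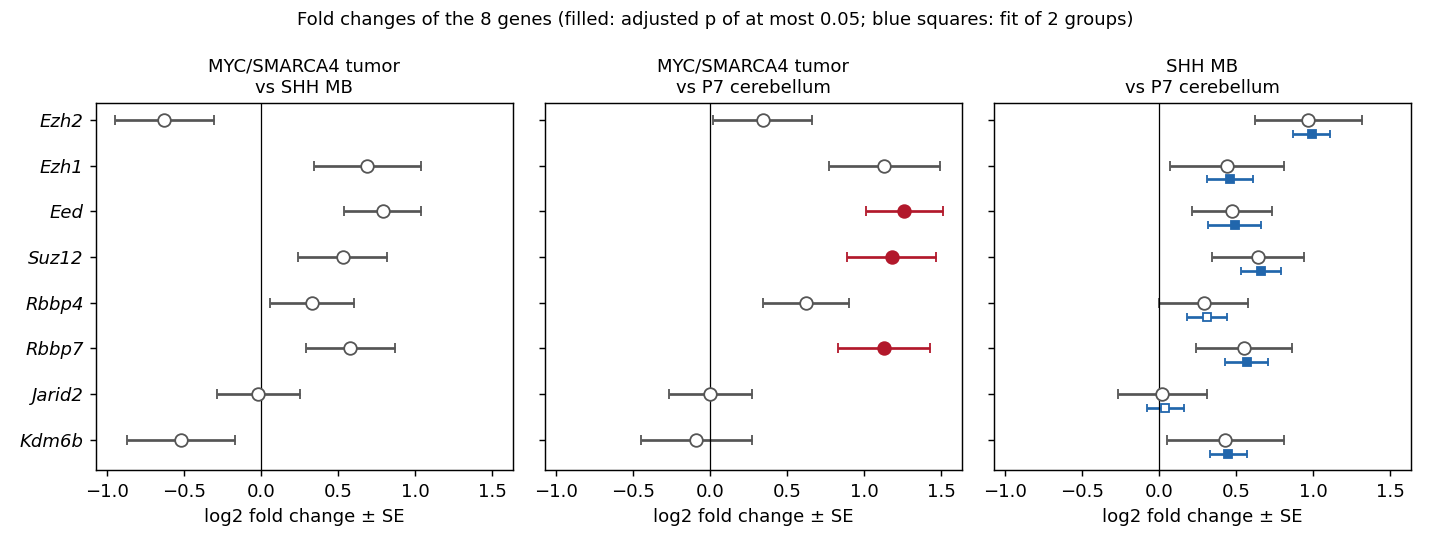
Log2 fold change (x axis) ± SE of the 8 genes in the 3 comparisons, with the first-named group relative to the second. Circles are the fit of all 10 libraries and squares the fit of SHH MB and P7 cerebella alone; filled symbols passed an adjusted p of at most 0.05, as Eed, Suz12 and Rbbp7 did in tumors against P7 cerebella and 6 genes did in the fit of 2 groups.

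The 3 SHH MB lay above the 3 P7 cerebella for 6 of the 8 genes (Ezh1, Ezh2, Eed, Suz12, Rbbp7 and Kdm6b), as did 17.8% of all genes tested, and the fitted difference was above 0 for 8 of 8 and for 43.8% of all genes. In the fit of all libraries, whose spread includes that of the 4 tumors, none of the 8 was called, 0.177% of all genes were called higher and 0.0467% lower. At an unadjusted p under 0.05 1 member (Ezh2) was higher, as were 5.16% of all genes, and none was lower, beside 3.64%. Neither DESeq2 nor limma called any member. In the fit of SHH MB and P7 cerebella alone these same 6 genes were called higher in SHH MB, as were 13.4% of 29018 genes. There, Ezh2 had the largest difference, followed by Suz12 (0.66 ± 0.13, adjusted p = 0.000199), Rbbp7 (0.57 ± 0.14, adjusted p = 0.0034), Eed (0.49 ± 0.17, adjusted p = 0.0382), Ezh1 (0.46 ± 0.15, adjusted p = 0.0303) and Kdm6b (0.45 ± 0.12, adjusted p = 0.00415). Rbbp4 (0.31 ± 0.13, adjusted p = 0.0787) and Jarid2 (0.04 ± 0.12, adjusted p = 0.839) were not called. All 20 proliferation genes were fitted higher in SHH MB than in P7 cerebella, with a median log2 fold change of 1.13. None of them was called by edgeR in the fit of all libraries (4 at an unadjusted p under 0.05), and 19 were called in the fit of these groups alone.

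In order of the group mean per kilobase of exon, Kdm6b was the highest and Ezh1 the lowest of the 8 genes in each group. Tumor 1 did not follow this order. There, Kdm6b (12.19 CPM per kilobase) lay below Ezh1 (12.52), Jarid2 was the highest (24.82) and Ezh2 the lowest (6.86). In SHH MB, Kdm6b (43.1 ± 3.73 CPM per kilobase, SD, n = 3) was followed by Ezh2 (23.0 ± 2.07) and Jarid2 (22.1 ± 0.648), whose ranges overlapped, then by Suz12 (16.9 ± 1.05), Rbbp4 (10.9 ± 0.937), Rbbp7 (7.97 ± 0.621), Eed (6.38 ± 0.176) and Ezh1 (4.31 ± 0.341), with no overlap between neighbors. In P7 cerebella, Jarid2 (21.8 ± 2.8) came second and Ezh2 (11.7 ± 1.06) next, and Ezh2, Suz12 (10.8 ± 1.83) and Rbbp4 (8.92 ± 1.68) overlapped in turn, as did Rbbp7 (5.45 ± 1.07) and Eed (4.6 ± 0.798). In MYC/SMARCA4 tumors, Suz12 (24.4 ± 7.6, n = 4) stood second and Ezh2 (14.9 ± 5.53) came after Jarid2, but all neighbors overlapped. The order depended on the length used, and with the length of the canonical transcript Kdm6b took rank 6 in the tumors and rank 2 in both other groups, behind Rbbp7 in the tumors, Ezh2 in SHH MB and Jarid2 in P7 cerebella at rank 1. Ezh1 kept rank 8 in each group.

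Genes whose log2 CPM followed that of a member over the 10 libraries are given as a description, as all points share library, depth and the low or high value of tumor 1. For Ezh2 these were LOC115489466 (Pearson's r = 0.988), Tacc3 (0.986), a gene of the mitotic spindle, Cbfb (0.984), Nfya (0.979) and Rbbp8 (0.978). For Ezh1 these were Kcnj12 (0.975), a potassium channel gene, LOC118567910 (0.974), Ssx2ip (0.974), Gm15651 (0.973) and Edc4 (0.972). Kdm6b was followed by Bcl9 (0.994), Sh3pxd2b (0.992), Abl1 (0.983), Ncoa6 (0.981) and Cbx2 (0.980), the last of which encodes a PRC1 subunit. Among the members, r was 0.91 for Eed and Rbbp7, 0.90 for Eed and Suz12, 0.88 for Ezh2 and Kdm6b and -0.34 for Ezh1 and Ezh2.

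Accessory proteins direct PRC2 to its targets or limit it. Of 8 accessory genes, 1 (Aebp2) was called higher in tumors than in P7 cerebella and none was called in the other comparisons. Counted in either direction, 5 of them had an unadjusted p under 0.05 in tumors against P7 cerebella and 5 against SHH MB. Between SHH MB and P7 cerebella there was 1. At this cutoff 15.3% of all genes were higher and 9.97% lower in tumors than in P7 cerebella. Against SHH MB these shares were 12.7% and 7.09%, and between SHH MB and P7 cerebella 5.16% and 3.64%. DESeq2 called 3 accessory genes against P7 cerebella, beside 4482 of 30186 genes, and 3 against SHH MB, beside 3065 of 25541. It called none between SHH MB and P7 cerebella. Aebp2, whose product binds together with JARID2, was at 179.5, 153, 109 and 193 CPM in tumors 1 to 4, 89.5, 88.7 and 112 CPM in SHH MB and 87.2, 76.6 and 71.8 CPM in P7 cerebella. Its log2 fold change was 1.02 ± 0.27 against P7 cerebella (adjusted p = 0.0428) and 0.72 ± 0.26 against SHH MB (adjusted p = 0.151), and the call was made in 7 of 19 alternatives. Epop links PRC2 to elongin. Its counts were 26, 268, 349 and 495 in tumors 1 to 4 and between 76 and 116 in each other library. Tumor 1 was the lowest and tumors 2 to 4 were the highest of all, with a log2 fold change of 1.86 ± 0.56 against P7 cerebella (adjusted p = 0.0658) and 1.83 ± 0.56 against SHH MB (adjusted p = 0.0837). Without tumor 1 Epop was called in both (2.22, adjusted p = 0.000268, and 2.17, adjusted p = 0.000417).

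In contrast, Phf19, a PHD finger protein of the complex, had 6, 22, 44 and 38 counts in tumors 1 to 4, 60 to 74 in SHH MB and 60 to 76 in P7 cerebella. Its level lay below both other groups in all tumors (-1.19 ± 0.39 against SHH MB, adjusted p = 0.107, and -0.95 ± 0.39 against P7 cerebella, adjusted p = 0.156). Ezhip, an inhibitor of PRC2, was low in every library, with 5 to 12 counts in tumors, 22 to 29 in SHH MB and 15 to 39 in P7 cerebella (-1.45 ± 0.46, adjusted p = 0.0928, and -1.26 ± 0.45, adjusted p = 0.11). The log2 fold changes against SHH MB and P7 cerebella were 0.42 ± 0.30 (adjusted p = 0.48) and 0.93 ± 0.31 (adjusted p = 0.087) for Mtf2, 0.96 ± 0.44 (adjusted p = 0.244) and 0.36 ± 0.43 (adjusted p = 0.588) for Phf1 and -0.21 ± 0.26 (adjusted p = 0.699) and 0.48 ± 0.26 (adjusted p = 0.267) for Lcor. Phf1 was highest in tumor 1 (54.5 CPM) and lowest in tumor 3 (11.5 CPM). Kdm6a, the second demethylase of the mark, was at 124, 88.4, 34.8 and 71.0 CPM in tumors 1 to 4, 95.4, 59.9 and 101 CPM in SHH MB and 50.6, 44.5 and 61.5 CPM in P7 cerebella. It was not called in any comparison (-0.10 ± 0.37 against SHH MB, adjusted p = 0.903, and 0.61 ± 0.37 against P7 cerebella, adjusted p = 0.312).

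Together with the accessory genes and Kdm6a, 96 further genes were followed, 95 of which were tested. They were genes of Polycomb, its opponents, its targets and other complexes with RBBP4 or RBBP7. Against SHH MB, 2 were higher in tumors (L3mbtl2 and Hoxa9) and 2 lower (Asxl3 and Foxa2), beside 2.43% and 2.26% of all genes. Against P7 cerebella, 4 were higher (Aebp2, L3mbtl2, Sap30 and Hoxa9) and 1 was lower (Asxl3), beside 3.99% and 2.27% of all genes. None of the 95 was called between SHH MB and P7 cerebella in the fit of all libraries, and DESeq2 and limma called none either. In that fit of all libraries 13 had an unadjusted p under 0.05, beside 5.16% of all genes higher and 3.64% lower. The fit of these groups alone called 34 higher and 5 lower, beside 3886 and 2997 of 29018 genes. No listed gene was called in all 3 comparisons.

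Of 24 PRC1 genes, which bind the mark and ubiquitylate histone H2A, 1 was called in tumors against both other groups. This was L3mbtl2, a subunit of a variant PRC1, with 44.9, 124, 87.7 and 55.6 CPM in tumors 1 to 4, 21.2 to 26.1 in SHH MB and 18.98 to 29.1 in P7 cerebella (1.68 ± 0.35, adjusted p = 0.0187, and 1.72 ± 0.35, adjusted p = 0.0177). Of 8 genes of the deubiquitinase PR-DUB, Asxl3 was lower in tumors, with 26.0, 22.3, 35.5 and 50.5 CPM in tumors 1 to 4, 95.8 to 122 in SHH MB and 97.9 to 116 in P7 cerebella (-1.66 ± 0.29, adjusted p = 0.00734, and -1.67 ± 0.29, adjusted p = 0.00975). The tumors overlapped neither of the other groups for either gene. Asxl3 was called in 18 of 19 alternatives against SHH MB and in 17 of 19 against P7 cerebella, and L3mbtl2 in 13 and 14 of 19.

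Among 22 genes of other complexes with RBBP4 or RBBP7, 17 were fitted higher in tumors than in P7 cerebella and Sap30, a SIN3 subunit, was called (1.23 ± 0.27, adjusted p = 0.0223; in 11 of 19 alternatives). Its counts were 88, 163, 153 and 232 in tumors 1 to 4, whereas P7 cerebella had 78 to 104. COMPASS complexes methylate histone H3 at active genes. Of their 15 genes, none was called by edgeR in the fit of all libraries, with 3 at an unadjusted p under 0.05 in tumors against P7 cerebella, 1 against SHH MB and 0 between SHH MB and P7 cerebella. DESeq2 called 3 in tumors against P7 cerebella, beside 4482 of 30186 genes. The fit of SHH MB and P7 cerebella alone called 11, beside 6883 of 29018 genes. In the fit of all libraries, 13 were fitted higher in tumors and 15 in SHH MB than in P7 cerebella. Over all genes tested, 14405 and 13125 of 29952 were fitted higher in these comparisons.

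Of 20 textbook targets of Polycomb silencing, 19 were tested. Hoxa9 was called higher in tumors against both groups, with 6, 282, 662 and 299 counts in tumors 1 to 4, 11 to 26 in SHH MB and 16 to 38 in P7 cerebella. It was thus high in 3 of 4 tumors, and tumor 1 lay below all other libraries in its counts (log2 fold change 4.28 ± 0.94, adjusted p = 0.023, and 3.84 ± 0.91, adjusted p = 0.0295). Hoxa9 was called in 12 of 18 alternatives against SHH MB and in 8 of 18 against P7 cerebella. Foxa2 was the single listed target called lower, against SHH MB alone (-2.96 ± 0.72, adjusted p = 0.0355, called in 9 of 18 alternatives), with 2, 0, 10 and 8 counts in tumors 1 to 4, 36, 81 and 20 in SHH MB and 14, 31 and 15 in P7 cerebella. It was named after its values had been seen. The median log2 fold change of the 19 targets was -0.53 against P7 cerebella and -0.36 against SHH MB, beside -0.05 and 0.01 over all genes tested, with 5 and 8 targets fitted higher. Their mean log2 CPM was 0.41, 0.39, 2.02 and 1.13 in tumors 1 to 4, 0.90 to 1.27 in SHH MB and 1.32 to 1.42 in P7 cerebella. By this mean, tumor 3 was the highest and tumors 1 and 2 were the lowest of all libraries. Tumors 1 and 2 also had the lowest effective library sizes, and 4 of the 20 targets were at 0 in tumor 2. Summed CPM gave another order, with 32.47, 83.14, 175.2 and 75.75 in tumors 1 to 4. These sums were 41.33 to 49.94 CPM in SHH MB and 48.73 to 54.93 CPM in P7 cerebella. Hoxa9 alone took 50.75 CPM in tumor 2.

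Set beside each other, the 6 core genes (Ezh1, Ezh2, Eed, Suz12, Rbbp4 and Rbbp7) had a median log2 fold change of 1.13 in tumors against P7 cerebella, 0.56 against SHH MB and 0.51 between SHH MB and P7 cerebella. In the same order the medians were 0.93, -0.25 and 1.13 for the 20 proliferation genes, of which 1 (Ccne2, a cyclin of S phase entry) was called, in tumors against P7 cerebella (1.30 ± 0.31, adjusted p = 0.031, called in 10 of 19 alternatives). They were 0.42, 0.20 and 0.22 for the accessory genes, 0.15, 0.13 and 0.16 for PRC1, 0.24, 0.08 and 0.11 for PR-DUB, 0.46, 0.05 and 0.49 for the other complexes and 0.45, -0.10 and 0.45 for COMPASS. Over all genes tested they were -0.05, 0.01 and -0.09. Without tumor 1, whose proliferation genes were low, the medians in tumors against P7 cerebella and SHH MB were 0.90 and 0.41 for the core genes, 1.28 and 0.10 for the proliferation genes and -0.16 and -0.05 for all genes. The median of the proliferation genes thus changed sign against SHH MB. These medians were not tested.

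**Figure D4:**
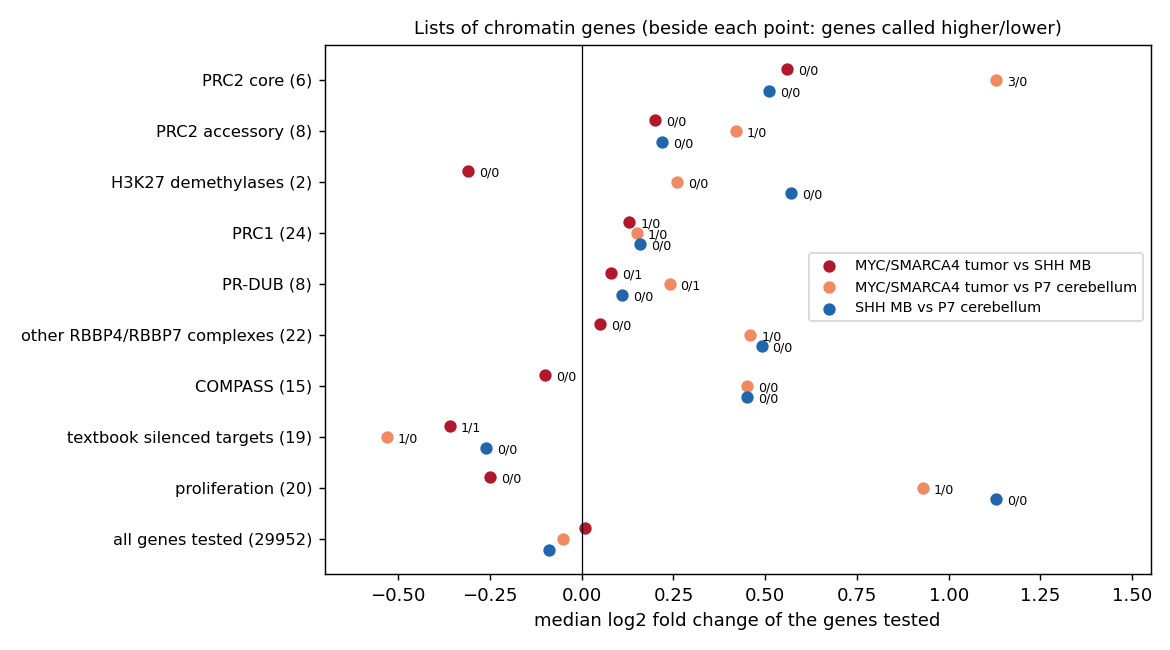
Median log2 fold change (x axis) of each list of genes in the 3 comparisons (colors), with the number of genes tested in parentheses and, beside each point, the genes called higher and lower. PRC2 core genes have a median of 1.13 in tumors against P7 cerebella with 3 genes called higher, and proliferation genes a median of 1.13 in SHH MB against P7 cerebella with none called.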

How the data were processed

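RNA of FFPE tissue was depleted of rRNA, prepared with a total RNA kit (CORALL) and sequenced as single-end reads of 75 bases. According to the methods and the submitters' processing notes, the authors trimmed reads with Trimmomatic 0.38.1, aligned them to GRCm39 with STAR 2.7.8a and deposited raw counts per gene from featureCounts 2.0.1. The authors also deposited a table of variance-stabilized values on a log2 scale, made with DESeq2. Annotation and strand setting of the counting are not given in the sources used here. Members and lists were chosen with earlier results of these data known.

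All 10 libraries entered a single fit in edgeR 4.0.16 (R 4.3.3) with a mean per group, TMM factors, filterByExpr and the quasi-likelihood test. P-values were adjusted by the Benjamini-Hochberg method over the 29952 genes tested. Log2 CPM used a prior count of 2. Values per kilobase used the union of GENCODE exons on GRCm39, the length of the canonical transcript being an alternative added after seeing the data. Alternatives were DESeq2 1.42.0, limma 3.58.1 on the deposited log2 values, RLE factors, other filters, fits of only the groups compared, robust estimation, a replicate block, library sizes from which mitochondrial and rRNA genes were left out, each library left out, the thresholds of the study and, for ratios, a prior count of 0.5 or no length. Scripts were tested on simulated data. Named beside the 8 members were all accessory genes and demethylases of the mark, in each list and comparison the called gene with the largest change and any called in all 3 comparisons, and the 5 genes most like Ezh2, Ezh1 and Kdm6b. Floors cover counting error only. The recipients of the 4 tumors differ in age, whereas for SHH MB and P7 cerebella the labels do not say whether replicates are separate animals, so that the spread within these groups, on which p-values also rest, may be technical. No 2 libraries of a group agreed within sampling noise (chi-square per degree of freedom 3.76 to 99.1).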

Additional observations from a re-analysis of the deposited data

Results flagged for a closer look

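Among 14 values examined in the 4 MYC/SMARCA4 tumors, 2 had a single tumor set off from the other 3 by more of the range than Dixon's 95% critical value of 0.829. Both concern tumor 1. Its log2 ratio of Ezh2 over Ezh1 was -0.86, with a gap of 0.897 of the range, and its difference between Ezh2 and the proliferation genes was 2.42 on the log2 scale, with a gap of 0.835. Chance flags about 1 in 20 groups.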

How the results depend on the processing

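Of 456 fitted differences of the 8 members under alternatives, 402 kept their direction and their side of the threshold, 29 lost and 13 gained the call, and 12 changed sign. The sign changes were those of Jarid2 against P7 cerebella (0.06 with DESeq2, 0.02 with limma, 0.03 with RLE factors, 0.06 without a filter, 0.0079 with the replicate block, -0.14 to 0.12 with single libraries left out), of Jarid2 in SHH MB against P7 cerebella (-0.05 with at least 10 counts in every library, -0.02 to 0.14 with libraries left out) and of Kdm6b in tumors against P7 cerebella (-0.30 to 0.18 with libraries left out).

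The 3 members called against P7 cerebella became 1 with limma, 1 without a filter, 0 with only the groups compared, 0 with the replicate block, 0 at the thresholds of the study and 0 to 5 with libraries left out. Against SHH MB the 0 members called became 1 with DESeq2 and 0 to 1 with libraries left out, and between SHH MB and P7 cerebella 6 with only these groups and 0 to 1 with libraries left out. The 4 further listed genes called against SHH MB became 11 with DESeq2, 7 with at least 10 counts and 1 with only the groups compared. They became 1 with the replicate block, 0 at the thresholds of the study and 0 to 15 with libraries left out (15 without tumor 3, 8 without tumor 1). The 5 against P7 cerebella became 14 with DESeq2, with limma 3, with only the groups compared 1, with the replicate block 1, at the thresholds of the study 0 and with libraries left out 0 to 21 (21 without tumor 1 and without tumor 3). Over all genes tested, 6729 of 28724 were called against SHH MB without tumor 3 and 2920 of 29877 without tumor 1. Against P7 cerebella these totals were 9932 and 4816. DESeq2 called 3065 of 25541 genes against SHH MB and 4482 of 30186 against P7 cerebella. Between SHH MB and P7 cerebella the count of 0 further listed genes became 39 with only these groups, beside 6883 of 29018 genes. With libraries left out it was 0 to 3. The causes were not tested. In SHH MB the log2 ratio of Ezh2 over Ezh1 was 2.41 per kilobase and 2.07 from counts without length.

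Deviations of libraries with the same replicate number correlated at -0.274 to 0.162. With 3 or 4 libraries a group this cannot exclude a shared batch, and the main fit did not pair the samples. With the replicate block, genes called fell from 1873 to 370 against P7 cerebella and from 1403 to 631 against SHH MB. In the deposited values the median of all genes was -0.232 and -0.150 in these comparisons, beside -0.051 and 0.008 in counts. Tumor 1 carries the lowest effective depth (3 counts are 0.744 CPM), and with 3 or 4 libraries a group a log2 fold change of 1.13 ± 0.36 (Ezh1) did not pass.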
